A study of Sus scrofa with 4 samples.

Results

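The 10 genes described here belong to growth factor signalling through the HGF receptor and the EGF receptor family, and were measured in sorted pig lung cells. They were chosen by name as 5 ligands (HGF, NRG1, AREG, EREG and HBEGF) and 5 receptors (MET, EGFR, ERBB2, ERBB3 and ERBB4), out of 29263 genes counted. The names of 9 of the 10 stand in the count tables, and ERBB3 was found only through its Ensembl identifier, ENSSSCG00000020725. RNA was sequenced from lung cells of pigs with the genotype LGR5-H2B-GFP knock-in, which all 4 libraries share, sorted on GFP into GFP-HI (2 biological replicates) and GFP-NEG (2 biological replicates). In this reporter a histone fused to GFP is made from the locus of LGR5, a receptor for R-spondins that amplifies Wnt signals; because the fusion protein is held in chromatin, green cells can include some that transcribe the gene no longer. No treatment is named in the labels, the zygosity of the knock-in is not given, and the protocol covers adult and fetal lung without saying which gave these libraries. The name of the deposited comparison table says adult pig.

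HGF is secreted mainly by mesenchymal cells as an inactive precursor, is cut by serine proteases, and acts on neighbouring epithelium and endothelium through its only high-affinity receptor, MET. The EGF family works by a different logic: its ligands are made as membrane-anchored precursors, are released by ADAM proteases, and make the receptors pair, with AREG binding EGFR, HBEGF and EREG binding EGFR or ERBB4, and NRG1 binding ERBB3 or ERBB4. ERBB2 binds no known ligand and serves as partner, while ERBB3 has almost no kinase activity of its own. In lung, these routes carry signals between mesenchyme and epithelium during branching, alveolar repair and scarring.

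Total counts were 24200550 and 24689986 in GFP-HI against 6292253 and 7045652 in GFP-NEG, so depth and group cannot be told apart. LGR5, which checks the sort, had 3218 and 3073 counts in GFP-HI against 10 and 7 in GFP-NEG. Low counts were spread more widely in GFP-NEG: 24120 and 25985 genes had at least 1 count there, against 18752 and 18392 in GFP-HI. Values below are CPM, counts scaled to a common library size after correction by the trimmed mean of M-values (TMM), and 1 count was worth 0.0453 and 0.0496 CPM in GFP-HI and 0.155 and 0.11 CPM in GFP-NEG. CPM is not divided by transcript length, so levels were compared between libraries and not between genes.

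In GFP-HI, HGF was 9.98-fold higher and MET 3.19-fold lower, whereas EGFR and its partner ERBB2 were 4.86-fold and 2.57-fold higher and the EGF receptor ligands AREG, EREG and HBEGF were 10.8-fold to 33.8-fold lower. NRG1, the neuregulin ligand, was 14.2-fold lower, and its receptor ERBB4, near the limit of detection, was lower too. With edgeR's quasi-likelihood test, adjusted over all 19682 genes tested, 3 of the 10 genes were called higher in GFP-HI (HGF, EGFR and ERBB2) and 6 lower (NRG1, AREG, EREG, HBEGF, MET and ERBB4). Over all tested genes 8.35% were called higher and 27.6% lower, 36.0% in either direction, and the median log2 fold change was -0.25. Both GFP-HI libraries lay above both GFP-NEG libraries for 3 of the 10 (27.7% of all tested genes) and below them for 6 (42.0% of all tested genes). All 10 genes passed the filter on low counts. The calls of MET, ERBB2 and ERBB4 were less firm, being lost in 6 of 14, 8 of 14 and 8 of 13 alternative runs.

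**Figure D1:**
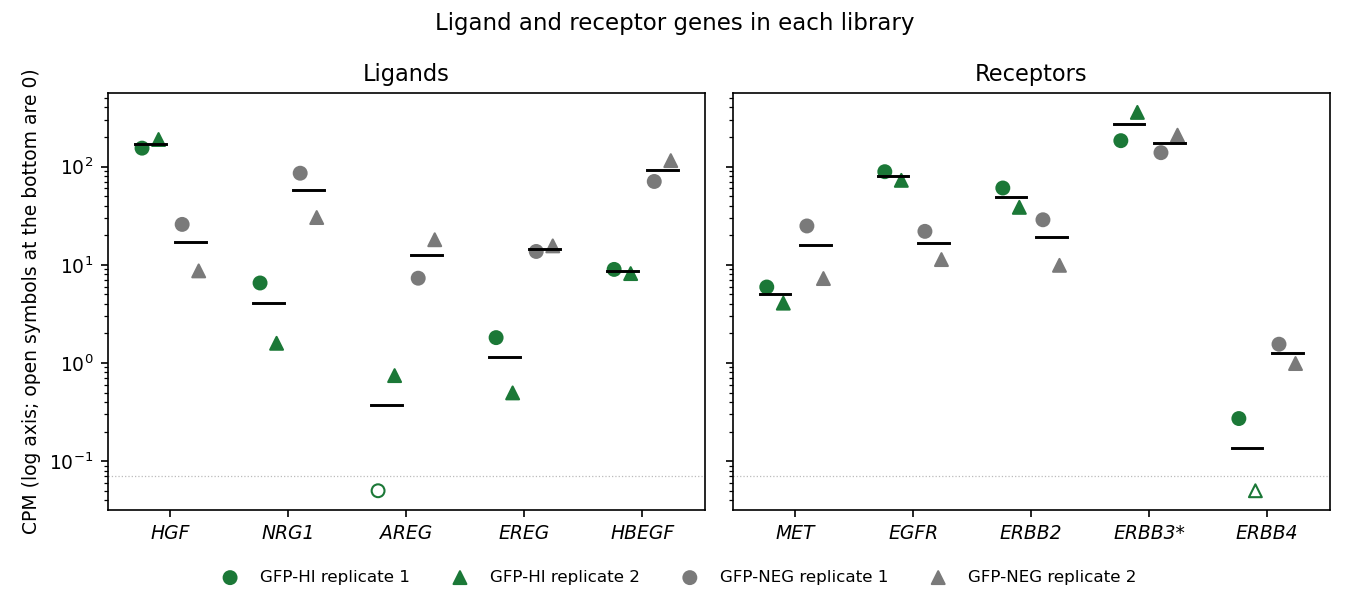
CPM of the 5 ligands (left) and 5 receptors (right) in each library on a log axis; green symbols are GFP-HI, grey symbols GFP-NEG, circles replicate 1, triangles replicate 2 and bars the mean of 2 libraries. HGF, EGFR and ERBB2 are higher in both GFP-HI libraries, the other ligands, MET and ERBB4 are lower in both, and ERBB3 (starred, since its row was matched by identifier) overlaps between groups.

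HGF, the hepatocyte growth factor, had 3400 and 3802 counts in GFP-HI against 166 and 79 in GFP-NEG. This gave 154 and 188.5 CPM in GFP-HI against 25.8 and 8.66 CPM in GFP-NEG. The GFP-HI libraries were close together, and the spread lay in GFP-NEG. The log2 fold change was 3.32 (standard error 0.599, edgeR adjusted p of 1.5e-06). Taken within replicates, HGF was higher in GFP-HI by 2.58 (replicate 1) and 4.44 (replicate 2) in log2 CPM. The log2 fold change was 4.30 without GFP-NEG replicate 1 and 2.73 without GFP-NEG replicate 2, with the call kept in both.

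HBEGF, AREG and EREG, the EGF receptor ligands among the chosen genes, were all lower in GFP-HI. HBEGF, the heparin-binding EGF-like growth factor, had 8.97 and 8.13 CPM in GFP-HI and 70.5 and 114.9 CPM in GFP-NEG. It was the most even of them within GFP-HI, with a log2 fold change of -3.44 (standard error 0.564, edgeR adjusted p of 9.2e-08). Leaving out any single library moved this value only between -3.75 and -3.04.

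AREG, amphiregulin, was not detected in GFP-HI replicate 1, where 0 counts allow a level of up to 0.136 CPM (3 counts, counting error only). GFP-HI replicate 2 had 15 counts, or 0.744 CPM, and the GFP-NEG libraries had 47 and 164 counts, or 7.30 and 18.0 CPM. All AREG signal in GFP-HI therefore came from 1 library. Its log2 fold change was -5.08 (standard error 0.956, edgeR adjusted p of 4e-06). It was -3.99 without GFP-HI replicate 1 and -4.28 without GFP-NEG replicate 2. When GFP-HI replicate 2 was left out, the fitted value, -10.29, was set against a library at 0.

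EREG, epiregulin, had 1.81 and 0.496 CPM in GFP-HI and 13.7 and 15.6 CPM in GFP-NEG, so that here GFP-NEG was even and GFP-HI was not. The log2 fold change was -3.65 (standard error 0.82, edgeR adjusted p of 0.00012). It was -4.78 without GFP-HI replicate 1 and -2.97 without GFP-HI replicate 2, and was called in both.

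NRG1, which activates ERBB3 and ERBB4, had 144 and 32 counts in GFP-HI against 551 and 276 in GFP-NEG. This was 6.52 and 1.59 CPM against 85.5 and 30.3 CPM. Replicate 1 was above replicate 2 in both groups, and the GFP-HI minus GFP-NEG step in log2 CPM was similar, at -3.71 and -4.23. Its log2 fold change was -3.83 (standard error 0.585, edgeR adjusted p of 8.6e-09). Its size depended on single libraries, with -5.12 without GFP-HI replicate 1, -3.13 without GFP-HI replicate 2 and -2.89 without GFP-NEG replicate 1, each still called. The counts are per gene, so the many NRG1 isoforms were not told apart.

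**Figure D2:**
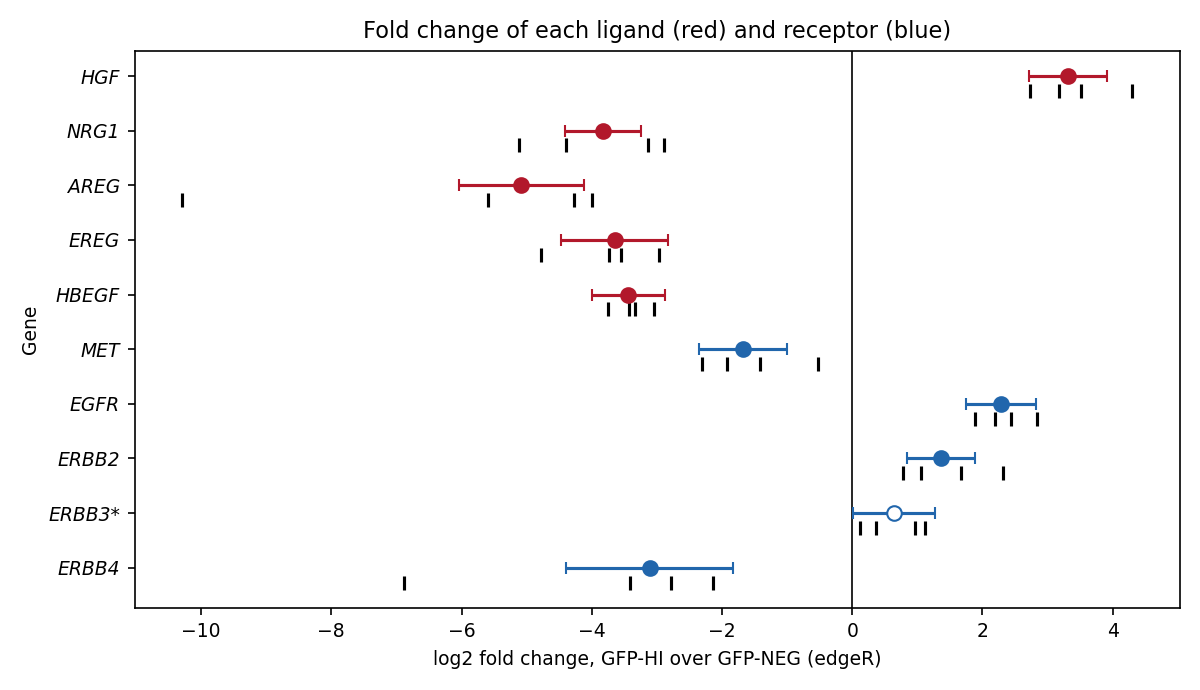
Log2 fold change of GFP-HI over GFP-NEG for the 5 ligands (red) and 5 receptors (blue), with the standard error as a bar; filled points have an adjusted p under 0.05, and the 4 black ticks under each point are the fits with 1 library left out. HGF, at 3.32, stands apart from the 4 other ligands, which lie between -5.08 and -3.44, and the tick at -10.29 for AREG is a fit against a library with 0 counts.

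Among the receptors, EGFR had the largest fold change upward. It had 1957 and 1460 counts in GFP-HI against 141 and 103 in GFP-NEG, or 88.7 and 72.4 CPM against 21.9 and 11.3 CPM. The 2 groups were well apart, and the log2 fold change was 2.28 (standard error 0.539, edgeR adjusted p of 0.00018). The call was lost without GFP-NEG replicate 2 (1.88, edgeR adjusted p of 0.13).

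ERBB2, the partner receptor without a ligand of its own, had 60.5 and 38.4 CPM in GFP-HI and 28.7 and 9.87 CPM in GFP-NEG. The groups did not overlap, but GFP-HI replicate 2 and GFP-NEG replicate 1 were close. The log2 fold change of 1.36 (standard error 0.526) passed the threshold narrowly, with an edgeR adjusted p of 0.03. It was not called with DESeq2 (adjusted p of 0.092), with limma voom (0.097), with library size alone (1.03, edgeR adjusted p of 0.13), without GFP-HI replicate 1 (1.05, 0.22) or without GFP-NEG replicate 2 (0.78, 0.57), and it was 2.32 without GFP-NEG replicate 1.

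MET, the receptor for HGF, had 5.94 and 4.06 CPM in GFP-HI and 24.8 and 7.24 CPM in GFP-NEG. GFP-NEG replicate 1 was far above the other 3 libraries. The log2 fold change was -1.67 (standard error 0.678, edgeR adjusted p of 0.04), and taken within replicates 1 and 2 the step in log2 CPM was -2.06 and -0.83. Without GFP-NEG replicate 1 it was -0.53 and not called (edgeR adjusted p of 0.71), nor was it called without GFP-HI replicate 1 (-1.92, 0.11), without GFP-HI replicate 2 (-1.41, 0.24), with DESeq2 (adjusted p of 0.08) or with limma voom (0.18). It was -2.31 without GFP-NEG replicate 2.

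ERBB4 was close to the limit of detection, with 6 and 0 counts in GFP-HI against 10 and 9 in GFP-NEG. This was 0.272 CPM and 0 in GFP-HI against 1.55 and 0.987 CPM in GFP-NEG. The log2 fold change was -3.11 (standard error 1.28, edgeR adjusted p of 0.044). The call was lost with the replicate block, which pairs libraries of the same replicate number (-3.68, edgeR adjusted p of 0.17). It was also lost with no filter on low counts (-3.07, edgeR adjusted p of 0.2), with DESeq2 (adjusted p of 0.23) and in 3 of the 4 fits that left out a library. Without GFP-HI replicate 1 the fitted value, -6.88, was set against a library at 0. For comparison, of 102 genes of odorant receptors, which serve the nose, 55 and 89 had a count in the GFP-NEG libraries, against 5 and 2 in GFP-HI. These genes had a 95th percentile of 1.39 and 5.25 CPM in the GFP-NEG libraries and of 0 in both GFP-HI libraries. ERBB4 was just above that level in GFP-NEG replicate 1 and below it in GFP-NEG replicate 2.

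The row matched to ERBB3 had 4051 and 7180 counts in GFP-HI against 892 and 1903 in GFP-NEG. This was 183.5 and 355.9 CPM against 138.5 and 208.6 CPM, and the groups overlapped. No call was made for it (log2 fold change 0.64, standard error 0.63, edgeR adjusted p of 0.46). On the RefSeq assembly Sscrofa11.1 the protein-coding gene next after ERBB3, 956 bases away, is PA2G4, a widely expressed regulator of growth. PA2G4 has no row under its name in the count tables and no entry in the gene name table. The gene before ERBB3, RPS26, 40526 bases away, has no row under its name either, but is in the gene name table. Whether the row matched to ERBB3 holds reads of PA2G4 was not tested, and the level of this row is uncertain as a measure of ERBB3.

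Ratios of ligand to receptor counts within a library do not depend on how libraries are scaled. There were 26.0 and 46.4 HGF counts per MET count in GFP-HI against 1.04 and 1.20 in GFP-NEG, and within replicates 1 and 2 this ratio was 25.0-fold and 38.7-fold higher in GFP-HI. The EGF receptor pair was turned the other way. GFP-HI had 0.101 and 0.112 HBEGF counts per EGFR count and GFP-NEG had 3.22 and 10.2, so that this ratio was 31.8-fold and 90.6-fold lower in GFP-HI within replicates 1 and 2. The ratio of EREG to EGFR was 0.0204 and 0.00685 in GFP-HI against 0.624 and 1.38 in GFP-NEG. In each of these pairs, and for AREG to EGFR and TGFA to EGFR, the 2 groups did not overlap. This had to be so, because in each pair the ligand and the receptor were already apart between groups in opposite directions. The ratios restate those levels and add no further support. For NRG1 and ERBB4, a receptor it binds, the ratio was 24 in GFP-HI replicate 1 and could not be formed in GFP-HI replicate 2, which had no ERBB4 count, against 55.1 and 30.7 in GFP-NEG. Per count of the uncertain ERBB3 row it was 0.0355 and 0.00446 against 0.618 and 0.145, and per count of the partner receptor ERBB2 it was 0.108 and 0.0413 against 2.98 and 3.07. The pairs were chosen after the values of the genes were seen, transcripts differ in length, and with 2 libraries a group no test was made.

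**Figure D3:**
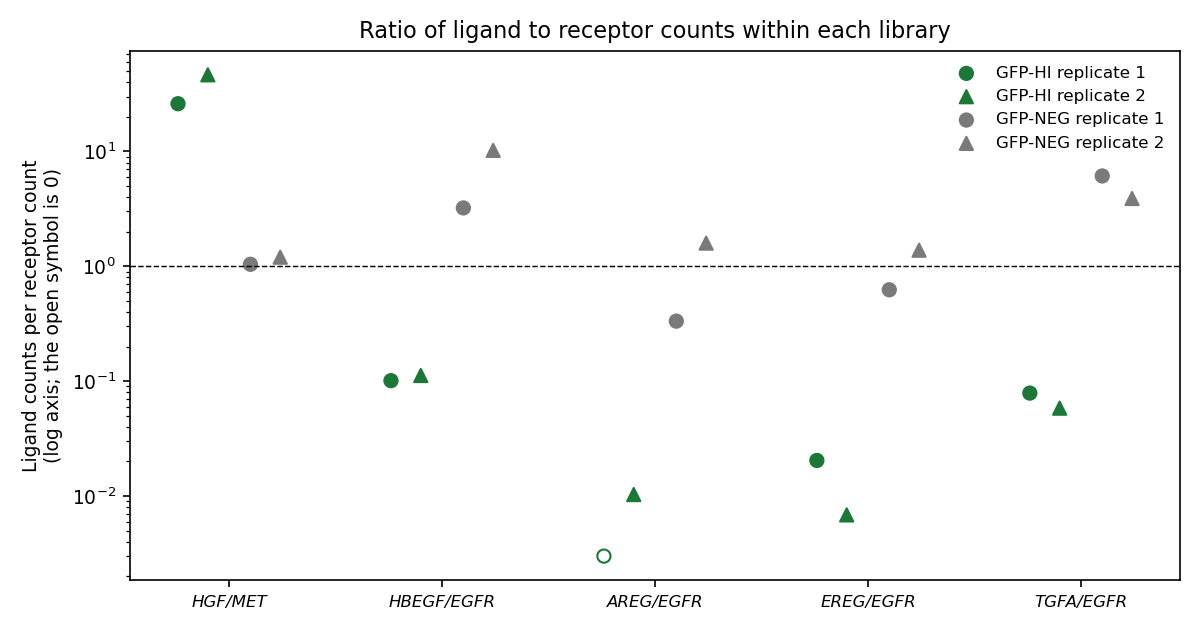
Counts of a ligand per count of a receptor within each library, on a log axis; green symbols are GFP-HI, grey symbols GFP-NEG, circles replicate 1 and triangles replicate 2, and the dashed line marks equal counts. HGF to MET is 26.0 and 46.4 in GFP-HI and near 1 in GFP-NEG (1.04 and 1.20), and the other 4 ratios, of EGF receptor ligands to EGFR, are lower in both GFP-HI libraries.

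The other genes of these pathways were taken from 6 lists. In the list of 7 further EGF-family and neuregulin ligands, 5 genes were tested, of which 2 fell and 0 rose, and the median log2 fold change was -2.57 (-0.25 over all tested genes). TGFA, a high-affinity EGFR ligand, had 154 and 85 counts in GFP-HI against 861 and 401 in GFP-NEG (log2 fold change -3.98, standard error 0.578, edgeR adjusted p of 1.2e-09). NRG2 was at 4 and 0 counts in GFP-HI against 5 and 14 in GFP-NEG, and its call (-3.54, edgeR adjusted p of 0.024) was lost with the replicate block (-3.78, 0.19). EGF was lower in both GFP-HI libraries but was not called (-2.57, edgeR adjusted p of 0.1). Against the 95th percentile of the odorant receptor genes, EGF was above it in GFP-NEG replicate 1 (3.1 CPM) and below it in GFP-NEG replicate 2 (2.85 CPM). BTC and NRG4 overlapped between groups, at 0.32 and 0.78 with edgeR adjusted p of 0.79 and 0.42. NRG3 was too low to be tested, and EPGN had no row.

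HGF needs to be cut to become active. In the list of 10 genes for that step, its inhibitors and the related ligand-receptor pair MST1 and MST1R, 9 were tested, 2 rose and 3 fell, with a median log2 fold change of -1.68. The plasminogen activators went in opposite directions: PLAT had 1518 and 2287 counts in GFP-HI against 225 and 67 in GFP-NEG (log2 fold change 2.11, edgeR adjusted p of 5e-04), whereas PLAU had 1518 and 2487 against 3539 and 3339 (-2.25, 0.0041). ST14, the epithelial membrane protease matriptase, and SPINT2, an inhibitor of such proteases, fell by 1.96 and 2.14 on the log2 scale (edgeR adjusted p of 0.01 and 4e-04). MST1, the HGF-like ligand of MST1R, rose by 2.25 (edgeR adjusted p of 0.015) with 209 and 309 counts in GFP-HI against 30 and 6 in GFP-NEG, and lost its call with library size alone (1.91, 0.096), upper-quartile scaling (2.01, 0.061) and with limma voom (2.72, 0.058). MST1R itself was at 0.30 (edgeR adjusted p of 0.77).

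Of 9 genes for ligand shedding, 1 rose and 1 fell (median -0.33). ADAM12 had 1267 and 1142 counts in GFP-HI against 14 and 67 in GFP-NEG (log2 fold change 3.56, edgeR adjusted p of 9e-08), and ADAM8, a protease of leukocytes, had 112 and 72 against 436 and 860 (-4.22, 2e-10). The main sheddases ADAM17 and ADAM10 were at -0.36 and -0.86 (edgeR adjusted p of 0.63 and 0.21). Of 15 tested adaptors and effectors, 1 rose and 4 fell (median 0.16). PIK3R3, a regulatory subunit of PI3-kinase, was higher by 1.52 (edgeR adjusted p of 0.021; 1.08 and 0.14 with library size alone).

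The 4 adaptors that fell were GRB2, GRB7, CBLC and SHC3. GRB2, which links activated receptors to the RAS exchange factor SOS1, averaged 27.7 ± 8.52 CPM in GFP-HI against 75.0 ± 17.9 CPM (SD, n = 2 each; log2 fold change -1.44, edgeR adjusted p of 0.02). Its call was lost with limma voom (adjusted p of 0.051), without GFP-HI replicate 2 (-1.13, edgeR adjusted p of 0.18), without GFP-NEG replicate 1 (-1.17, 0.19) and without GFP-NEG replicate 2 (-1.66, 0.12). The other 3 were low everywhere, with at most 62 counts in a library, and with the replicate block CBLC (edgeR adjusted p of 0.018 without and 0.057 with it) and SHC3 (0.00062 and 0.062) lost their calls. SHC3 was at 0 in both GFP-HI libraries against 6 and 9 counts in GFP-NEG. The lower GFP-NEG level, 0.932 CPM, was 6.26-fold above the higher GFP-HI limit of 0.149 CPM (3 counts in a library). This allows for counting error in GFP-HI but not for that of the 6 counts in GFP-NEG, so it is no firm bound. SHC3 and NRG2 both lay below the 95th percentile of the odorant receptor genes in each GFP-NEG library (1.39 and 5.25 CPM). CBLC lay above it in GFP-NEG replicate 1 (1.86 CPM) and below it in GFP-NEG replicate 2 (4.06 CPM). GRB7 lay above it in both GFP-NEG libraries (2.64 and 6.80 CPM).

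Feedback genes moved in both directions. Of 9 receptor feedback inhibitors, 1 rose and 2 fell (median 0.31). LRIG1, a membrane protein that promotes loss of EGFR family receptors from the cell, had 4795 and 2050 counts in GFP-HI against 181 and 49 in GFP-NEG. It was 9.57-fold higher in GFP-HI (log2 fold change 3.26, standard error 0.592, edgeR adjusted p of 1.7e-06). The phosphatases PTPN1 and PTPRJ fell, with log2 fold changes of -2.09 and -1.75 (edgeR adjusted p of 0.0085 and 0.0052).

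Of 14 tested genes that respond to or restrain ERK, the kinase downstream of these receptors, 2 rose and 4 fell (median 0.39). The rising genes were SPRED1 (2.08, edgeR adjusted p of 0.00058) and SPRY2 (1.98, 0.0018), inhibitors of RAS and ERK signalling. Those that fell were DUSP4 (-1.97, 0.006), DUSP5 (-2.89, 5.7e-05) and DUSP6 (-1.81, 0.0043), phosphatases that switch ERK off, and IER3 (-2.18, 0.0035), an early response gene. Over the 6 lists together, 7 of 61 tested genes were called higher (11.5%, against 8.35% of all genes) and 16 lower (26.2%, against 27.6%), shares near those of all genes. With the replicate block the counts were 11 and 14. They were 12 and 8 without GFP-NEG replicate 1, where more genes were higher than lower, but 1 and 8 without GFP-NEG replicate 2. Leaving out GFP-HI replicate 2 gave 4 and 7.

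Of the 21 pathway genes named by rule, TGFA, SPINT2, ADAM12, ADAM8 and DUSP5 kept their calls in every alternative run. ADAM12 aside, the higher genes all lost their calls without GFP-NEG replicate 2, where PLAT was at 1.38 (edgeR adjusted p of 0.28), MST1 at 1.41 (0.31), SPRED1 at 1.45 (0.25), SPRY2 at 1.70 (0.17), PIK3R3 at 1.48 (0.24) and LRIG1 at 2.50 (0.053). Of the lower genes, IER3, PTPRJ and DUSP6 lost their calls without GFP-HI replicate 2 (edgeR adjusted p of 0.099, 0.088 and 0.094) or without GFP-NEG replicate 1 (0.063, 0.084 and 0.22). PLAU lost its call without GFP-HI replicate 1 (-1.83, 0.083). DUSP4 lost its call without that library (-1.62, edgeR adjusted p of 0.086) and without GFP-NEG replicate 2 (-1.81, 0.11). PTPN1 and ST14 each lost theirs in 3 of the 4 fits that left out a library, with edgeR adjusted p of at most 0.072 and 0.13. The low-count genes NRG2, GRB7, CBLC and SHC3 lost theirs without GFP-NEG replicate 2 (edgeR adjusted p of 0.62, 0.22, 0.4 and 0.28), and all but SHC3 did so without GFP-HI replicate 2 (0.12, 0.096 and 0.16).

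**Figure D4:**
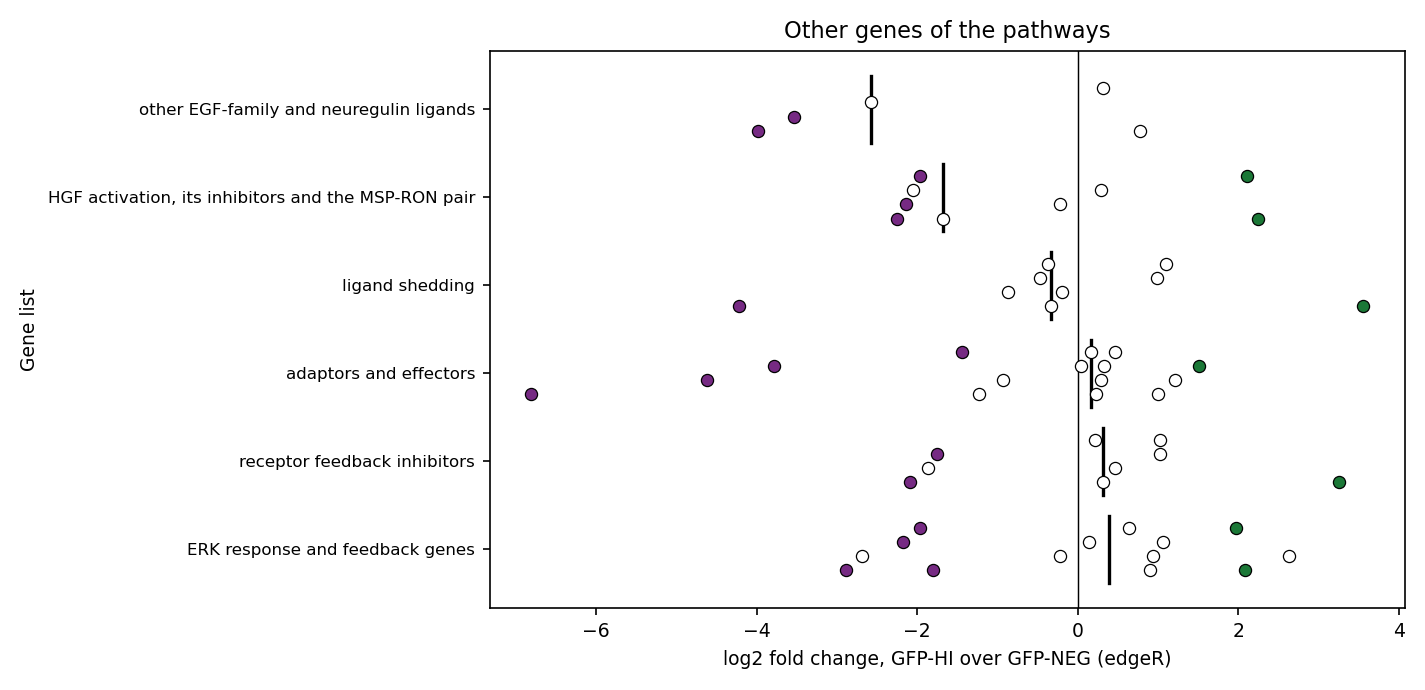
Log2 fold change of GFP-HI over GFP-NEG for each tested gene of the 6 pathway lists (points, spread vertically for legibility), with the list median as a bar; green points were called higher, purple points lower and white points not called. The list of other EGF-family ligands has the lowest median, at -2.57, and the feedback and ERK lists hold calls in both directions.

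The composition of the fractions differed along with these genes, and in bulk samples fewer cells of a type and less RNA per cell cannot be told apart. The 8 fibroblast markers were higher in both GFP-HI libraries, 5 past the threshold and 0 lower, with a summed level of 70900 to 81300 CPM in GFP-HI and 9010 to 25000 CPM in GFP-NEG, COL1A2 and COL3A1 being the most abundant. Their log2 fold changes ran from 1.79 to 4.40, a range that holds HGF and EGFR, while ERBB2 at 1.36 lay below it. Per count of PDGFRA, the mesenchymal PDGF receptor, there were 0.187 and 0.335 HGF counts in GFP-HI against 0.265 and 0.382 in GFP-NEG, which overlap. For EGFR the same ratio was 0.108 and 0.129 in GFP-HI against 0.225 and 0.498 in GFP-NEG, and for ERBB2 it was 0.0736 and 0.0683 against 0.296 and 0.435. The outcome depended on the marker for HGF and EGFR. Across the 8 fibroblast markers taken in turn, EGFR per marker count was lower in both GFP-HI libraries for 4, overlapped for 3 and was higher for COL1A1 (0.00455 and 0.00608 against 0.00388 and 0.0039). HGF was higher for 3, the collagen genes, lower for 2 and overlapped for 3, while ERBB2 was lower for 8 of 8.

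Leukocyte genes were also lower in GFP-HI. All 4 pan-leukocyte markers fell, with a summed level of 208 and 476 CPM in GFP-HI and 3090 and 4620 CPM in GFP-NEG, LCP1 and CORO1A being the most abundant. Their log2 fold changes ran from -3.73 to -3.28, a range that holds HBEGF and EREG, while NRG1 and AREG lay below it. Per count of PTPRC, the pan-leukocyte gene for CD45, there were 0.195 and 0.0672 HBEGF counts in GFP-HI against 0.103 and 0.0946 in GFP-NEG. The groups overlapped in this ratio for HBEGF, EREG and NRG1, and AREG was lower in GFP-HI (0 and 0.00614 against 0.0106 and 0.0148). For EREG (0.0394 and 0.0041 against 0.0199 and 0.0128) and NRG1 (0.142 and 0.0131 against 0.125 and 0.0249) the overlap came with a wide spread within GFP-HI. In both groups NRG1 was higher in replicate 1, whereas the summed pan-leukocyte level was higher in replicate 2. Each of the 4 pan-leukocyte markers, taken in turn as the denominator, gave the same outcome for these ligands. These ratios were added after the data were seen, and the part of leukocytes or fibroblasts in the fold changes was not tested.

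The leukocyte classes behaved alike in sum. All 4 neutrophil markers, 5 of 5 T and NK markers, all 3 mast cell markers, 4 of 5 B and plasma cell markers and 4 of 7 macrophage and monocyte markers fell, and 0 rose. Neutrophil genes, led by CSF3R and S100A8, summed to 93.8 and 31.7 CPM in GFP-HI and 1480 and 702 CPM in GFP-NEG. Mast cell genes, led by FCER1A and MS4A2, summed to 18.6 and 36.1 CPM against 190 and 226 CPM. T and NK genes, led by GNLY and NKG7, summed to 48.2 and 128 CPM against 594 and 929 CPM. B and plasma cell genes, led by JCHAIN and CD79A, summed to 114 and 255 CPM against 698 and 1100 CPM, and macrophage genes, led by CSF1R and C1QB, to 336 and 223 CPM against 1380 and 636 CPM.

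HBEGF and AREG are early response genes in many cells, and the genes known to be switched on while tissue is digested were also mostly lower in GFP-HI. Of 10 such genes tested, 7 fell and 0 rose, and the list, led by FOS and ZFP36, summed to 3460 and 1930 CPM in GFP-HI and 12300 and 9450 CPM in GFP-NEG. The part of this response in the ligand levels was not tested.

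MET, ERBB2 and ERBB3 are typical of epithelium. The general epithelial list, led by KRT8 and CDH1, summed to 40.1 and 20.3 CPM in GFP-HI and 97.8 and 52.7 CPM in GFP-NEG, with 1 of 4 genes lower and 0 higher. The alveolar type 2 list, led by SFTPC and SFTPA1, had 131 and 270 CPM in GFP-HI against 430 and 176 CPM (2 of 5 lower). The alveolar type 1 list, led by CAV1 and AGER, had 262 and 248 CPM against 364 and 71.8 CPM (1 of 4 higher, PDPN). The airway list, led by SCGB1A1 and KRT5, had 139 and 165 CPM against 306 and 94.5 CPM (2 of 5 lower). GFP-NEG replicate 1, the library with the most MET, had the highest sum of all 4 libraries in each of these epithelial lists. This was not particular to epithelium, since it also had the highest sum in the neutrophil, macrophage, endothelial, smooth muscle and dissociation lists. The pan-leukocyte, T and NK, B and plasma and mast cell lists were highest in GFP-NEG replicate 2. The part of epithelium in the MET level was not tested.

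All 6 endothelial markers fell, led by PECAM1 and CDH5, with 141 and 159 CPM in GFP-HI against 944 and 424 CPM in GFP-NEG. Smooth muscle and pericyte genes, led by ACTA2 and MYH11, had 913 and 1810 CPM against 2070 and 295 CPM (3 of 6 lower). For Schwann and glial cells, which respond to NRG1 through ERBB3, SOX10 had 135 and 323 counts in GFP-HI against 30 and 40 in GFP-NEG and was not called (log2 fold change 1.29, edgeR adjusted p of 0.18), while CDH19 was at 0 in all 4 libraries. Of the remaining markers, HBB of red cells fell (2 and 0 counts in GFP-HI, 66 and 48 in GFP-NEG), ALAS2 and HBM were at 0 in GFP-HI, ITGA2B and PPBP of platelets were not called, and of the mesothelial genes CALB2 was at 0 in GFP-HI and WT1 in replicate 1 of both groups.

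**Figure D5:**
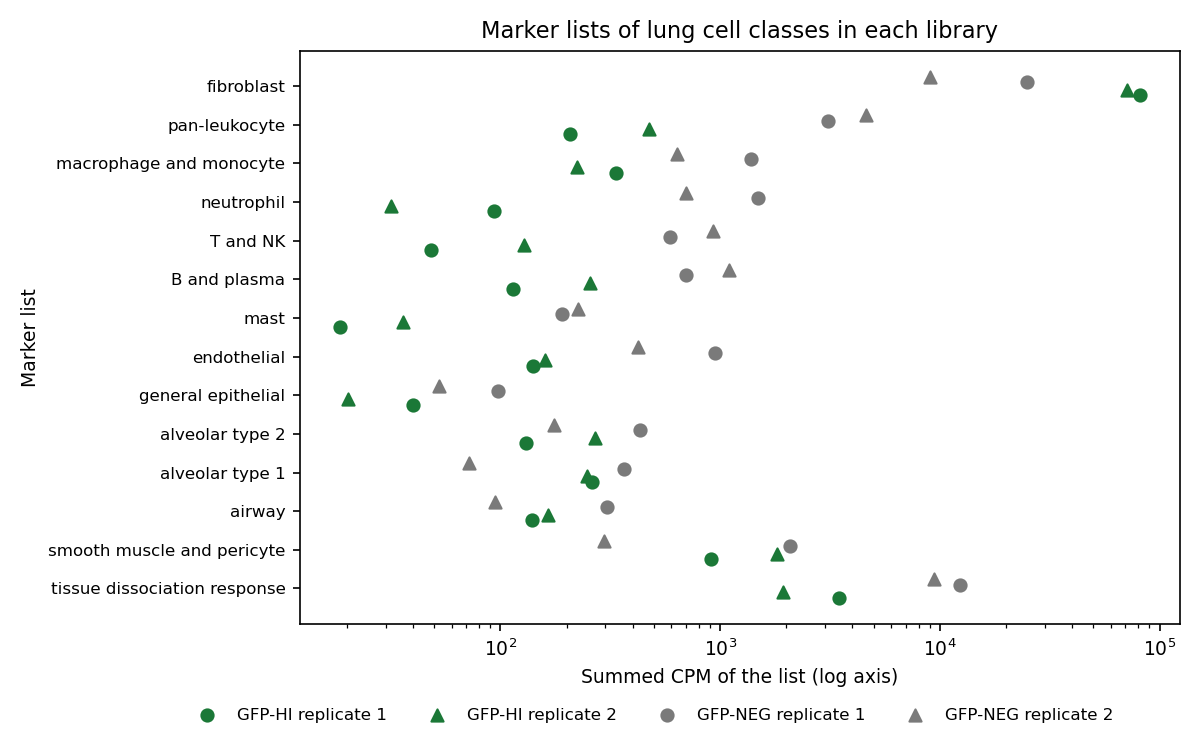
Summed CPM of each marker list with at least 3 tested genes in each library, on a log axis; green symbols are GFP-HI, grey symbols GFP-NEG, circles replicate 1 and triangles replicate 2. The fibroblast list is higher in both GFP-HI libraries (70900 and 81300 CPM), the leukocyte, endothelial, general epithelial and dissociation lists are lower in both, and the alveolar, airway and smooth muscle lists overlap.

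Of the 10 genes, 9 stand in the authors' deposited table, with log2 fold changes of 3.32 for HGF, 2.28 for EGFR, 1.36 for ERBB2, 0.63 for the row matched to ERBB3, -1.68 for MET, -3.45 for HBEGF, -3.67 for EREG, -3.84 for NRG1 and -5.11 for AREG. In the authors' deposited table ERBB2 and MET had adjusted p-values of 0.092 and 0.08, above the threshold, and the adjusted p-values of HGF, EGFR, NRG1, AREG, EREG and HBEGF were 0.00062 or less.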

How the data were processed

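RNA was sequenced from 4 sorted lung cell libraries, 2 in each group. The authors deposited raw counts, 1 table a library. The tools featureCounts, Subread 1.5.2 and DESeq2 1.37.6 are named in the submitters' processing notes, while the aligner, strand setting and filters are not given in the sources used here. The genome build is not stated either, apart from an annotation version in the name of the deposited comparison table. Overlapping genes and close paralogs are therefore uncertain. The authors also deposited a comparison table holding log2 fold changes, p-values, a score (the test statistic) and a normalized signal (counts times a constant), per the file headers; the signal and score were not used, and 2 of the signal headings carry another library's counts.

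Symbols from the gene name table matched 844 identifiers, of which 834 were renamed. edgeR 4.0.16 (R 4.3.3; quasi-likelihood F test, TMM, filterByExpr, group as the only term) was fitted to all genes; 19682 were tested, and p-values were adjusted by Benjamini-Hochberg with a threshold of 0.05. Standard errors are the log2 fold change over the root of F. The common dispersion was 0.239 and the prior degrees of freedom were infinite, so a gene's own scatter weighed little. CPM used the TMM factors. The procedure was run on simulated counts that gave every gene the same dispersion and set no difference in composition or background between groups. That run therefore says nothing about those features of the data. The headings of the deposited table number the libraries by pig, but some of them carry another library's counts. The sample labels give a replicate number and state no pairing, so pairing by replicate number was kept as an alternative to the main fit. Deviations of same-numbered libraries correlated with r = 0.143 across genes.

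Alternatives were RLE, upper-quartile and plain library-size scaling, 2 other filters, DESeq2 1.42.0, limma voom 3.58.1, robust empirical Bayes, the replicate block, GFP-HI thinned to GFP-NEG depth, and leaving out each library, where the lone library is assumed to vary like the other group. Named genes are the 10, and from each pathway list up to 3 called genes in each direction by smallest p. EGF, GRB2, DUSP4, MST1R, BTC, NRG4, ADAM10, ADAM17 and PDPN were named after their values were seen. From each marker list the 2 most abundant genes and those at 0 are named, except a few that are not reported here. The 10 genes and the lists were chosen with earlier results of these data known, and the 102 odorant receptor genes, picked by the form of their symbol, and the count ratios were added after seeing the data.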

Additional observations from a re-analysis of the deposited data

How the results depend on the processing

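HGF, NRG1, AREG, EREG and HBEGF kept direction and call in all 14 alternatives, with adjusted p of 0.033 or less. EGFR kept its call in 13 of 14. MET, ERBB2 and ERBB4 kept direction in every alternative that gave a value, but lost their calls in 6 of 14, 8 of 14 and 8 of 13. ERBB3 was called in none, and its log2 fold change ran from 0.12 to 1.11. No log2 fold change of the 10 genes or the 21 pathway genes named by rule reversed; 5 of those 21 kept their call throughout, 5 lost it in a fit of all 4 libraries and 11 only when a library was left out. Members called higher numbered 1 to 3 and lower 4 to 5 when single libraries were left out. Over all genes these fits called 204 to 1539 higher and 1373 to 4680 lower, lowest without GFP-NEG replicate 2. Genes called higher numbered 1643, but 1083 with upper-quartile scaling, 888 with library size alone and 902 with limma voom; genes called lower numbered 5433, but 3568 after thinning. The median over all genes, -0.25, became -0.58 under upper-quartile scaling and -0.68 under plain library size. With the replicate block (libraries paired by replicate number), 3 of the 10 genes were called higher and 5 lower. Of all genes, 1707 were called higher and 4793 lower, and among the 10 genes the block ended only the call of ERBB4. The shallow GFP-NEG libraries limit low genes, 3 counts there being worth 0.329 to 0.466 CPM. The 95th percentile of the odorant receptor genes was higher, at 1.39 and 5.25 CPM in GFP-NEG replicates 1 and 2. GFP-NEG values below that level are therefore less certain.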
